A study of Mus musculus with 6 samples.

Results

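The genes described here are 8 genes of synaptic vesicle release: Syt1, Snap25, Vamp2, Syn1, Syn2, Sv2a, Sv2b and Bsn. A target peak of Argonaute 2 (AGO2) was credited to a gene when its midpoint lay inside the gene's annotated span on mm10, and 41 of the 2197 deposited peaks (1.87%) met that rule. They fell in 6 of the 8 genes, because Syn1 and Sv2a held 0 peaks. The study isolated RNA with a peptide-tagged AGO2 from the cortex of mice at postnatal day 14, in a mouse line where a VGLUT2-Cre driver switches on a conditional Spy3-AGO2 allele. Its 6 libraries form 3 groups of 2, namely AGO2-bound target, AGO2-bound miRNA and input from whole lysate. All of them carry the same genotype label, Spy3-Ago2, and pyramidal neurons, which are glutamatergic cells that send long axons, as the cell type. The labels do not say whether replicates came from separate animals.

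AGO2 carries a microRNA (miRNA) and holds it against matching stretches of messenger RNA, most often in the 3′ untranslated region, where it lowers stability or translation of the message. Transmitter release runs through a small set of proteins. The vesicle SNARE Vamp2 zips together with the plasma membrane SNARE Snap25 to fuse the vesicle, and Syt1 senses the calcium that triggers fusion. Synapsins (Syn1, Syn2) tether vesicles into a reserve pool, the SV2 glycoproteins (Sv2a, Sv2b) sit in the vesicle membrane, and Bassoon (Bsn) is a large scaffold of the active zone.

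The target side was read from 1 peak list for the series, with position, strand and a score of 0 for every peak. No value of a single target or input library was used, so depth and replicate spread are unknown for peaks and no test between groups exists. Whether peaks were called against the input is not given in the sources used here, and transcript abundance was not measured, so a count of peaks is not a measure of how strongly AGO2 held a message. In whole cortex, fewer cells of a type and less RNA per cell cannot be told apart. Markers bear on the label as follows. Of 8 glutamatergic neuron markers, 5 had a peak, among them Slc17a7 (5 peaks) and Camk2a (4), while Slc17a6, the gene of VGLUT2, for which the Cre driver is named, had 0. Of 7 GABAergic markers 1 had a peak (Sst, 1 peak), of 6 astrocyte markers 1 (Slc1a2, 45 peaks) and of 6 oligodendrocyte lineage markers 3, among them Mbp (2). All 6 microglia and all 4 endothelial markers had 0 peaks. The part of these other cells in the peaks of release genes was not tested.

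Peaks in the release genes were many per gene rather than spread thinly. Of all 21887 nuclear protein-coding genes, 941 (4.30%) had at least 1 peak, and the median over all of them was 0. Among the 8 release genes 6 had a peak, and each of those 6 had at least 2. Over all protein-coding genes 299 (1.37%) had at least 2, which is 31.8% of the genes with a peak. At least 4 peaks were found in 5 release genes (Syt1, Snap25, Vamp2, Bsn and Sv2b), a number reached by 90 protein-coding genes (0.411%), or 9.56% of those with a peak. The median of the 6 genes with a peak was 6.5 peaks, against 1 peak over 843 other protein-coding genes. For those 843 only peaks in exactly 1 protein-coding span were counted, so some of the 935 other genes with a peak are left out. The genes were chosen with their peaks known, so these counts are a description.

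**Figure D1:**
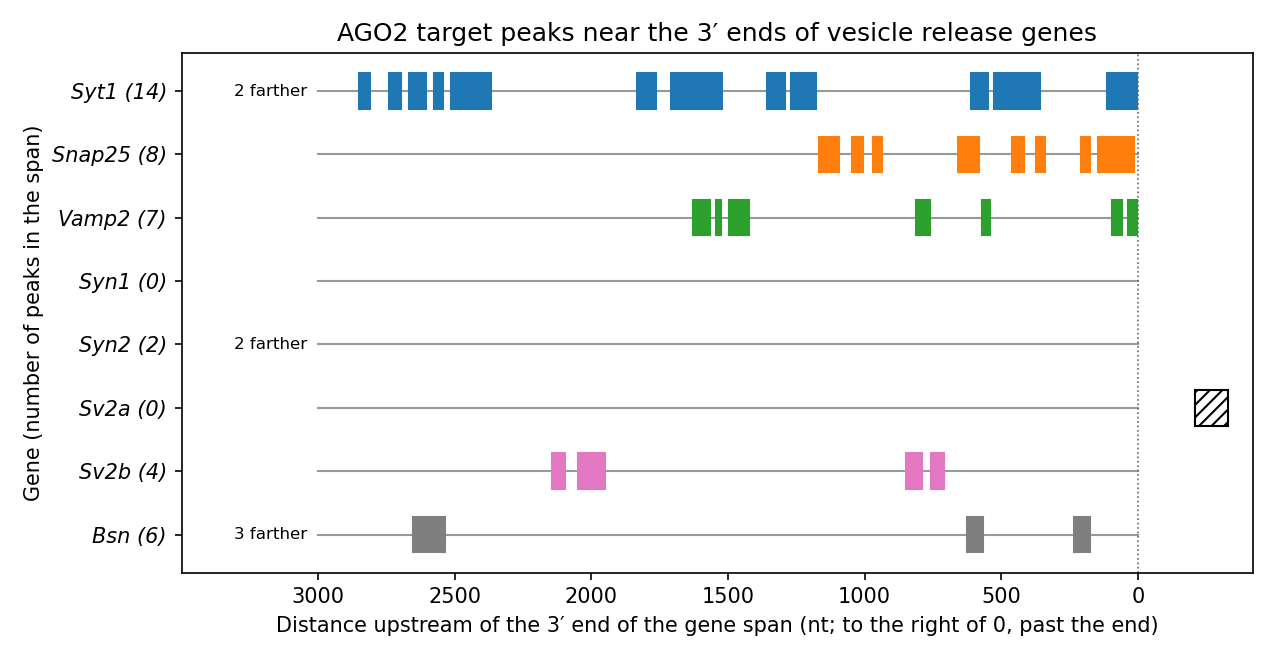
Peaks drawn to scale along the last 3 kb of each gene span, with the 3′ end at 0 and the direction of transcription from left to right. Filled blocks are peaks inside the span, "farther" counts peaks beyond 3 kb, and the hatched block is the peak past the annotated end of Sv2a. Syt1, Snap25 and Vamp2 carry peaks up to their ends, while Syn1 carries 0 and both peaks of Syn2 lie farther away.

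Syt1, the calcium sensor, held the most peaks of the 8 genes. Its span is chr10:108497650-109010980, 513 kb long, and it held 14 peaks, all on the minus strand, which is the strand of the gene in the promoter table. Only 2 protein-coding genes had more. The peak at the end of the gene, chr10:108497653-108497761, was 109 nt wide and stopped 3 nt short of the annotated 3′ end. The next were 167 nt wide at 441 nt from the end and 62 nt wide at 578.5 nt, distances being those of peak midpoints. A second group held 4 peaks at 1225, 1323.5, 1616.5 and 1798.5 nt, with widths of 91, 64, 186 and 70 nt. The 186-nt peak, chr10:108499174-108499359, was the widest of all 41.

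Another group in Syt1 held 5 peaks between 2440.5 and 2829.5 nt, with widths of 146, 34, 60, 44 and 40 nt, separated by gaps of only 28 to 69 nt. Together these 12 peaks covered 37.7% of a stretch of 2847 nt. The other two lay apart. One, 66 nt wide, was 6.85 kb from the end, and the other, chr10:108583875-108583992, 118 nt wide, was 86.3 kb away, at 16.8% of the span counted from the end. All but this last peak also lay inside the span of Gm36601, a lncRNA gene that overlaps the last 14418 nt of Syt1. The promoter table places Gm36601 on the plus strand, so these 13 peaks are antisense to it. Counting only peaks that lie in a single gene span leaves 1 peak in Syt1.

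The SNARE genes carried compact runs of peaks. Snap25, whose protein is the substrate of botulinum neurotoxin A, lies at chr2:136713439-136782428 (69.0 kb) and held 8 peaks, all on the plus strand. All 8 lay in the last 1.64% of the span, at 79, 190, 356, 438.5, 619.5, 951.5, 1025.5 and 1129.5 nt from the end. Their widths in the same order were 133, 33, 33, 46, 80, 32, 38 and 72 nt, so the peak nearest the end, chr2:136782283-136782415, was the widest. It stopped 13 nt before the annotated end. The peaks covered 40.5% of the 1153 nt from the outermost edge to the innermost, the highest cover of the release genes.

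Vamp2 (synaptobrevin), the substrate of tetanus toxin, is the shortest of the 8 genes at 3.85 kb (chr11:69088528-69092381). It held 7 peaks, all on the plus strand, within 1598.5 nt of the end. They formed a pair at 18 and 76.5 nt, single peaks at 556 and 786.5 nt, and a group of 3 at 1460, 1535 and 1598.5 nt. Widths ran from 17 to 73 nt with a median of 36 nt, the narrowest set of the 6 genes. The 17-nt peak, chr11:69090838-69090854, lay between neighbours 24 and 30 nt away. The end of the peak nearest the 3′ end, chr11:69092347-69092379, was 2 nt from the annotated end. Because the span is short, its last 10% is only 385.4 nt, and 2 of the 7 peaks lay in it although all 7 lay within 3 kb. Snap25 and Vamp2 share the plus strand of their peaks and the closeness of the last peak to the end, but Vamp2's peaks covered 18.3% of their stretch of 1628 nt.

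Peaks that abut the annotated end were a feature of 3 of the 6 genes. In Syt1, Snap25 and Vamp2 the last peak ended within 20 nt of the 3′ end. In Bsn the distance was 177 nt, in Sv2b 710 nt and in Syn2 6075 nt. Over 843 other protein-coding genes with a peak, 96 (11.4%) had one ending within 20 nt of the end. A gene with more peaks has more chances to hold one there, and the release genes hold more peaks per gene, so the shares are given side by side with no test.

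The synapsin genes differed from the SNARE genes in the number and place of their peaks. Syn1 (chrX:20860511-20920918, minus strand in the promoter table, 60.4 kb) held 0 peaks on either strand. The nearest peak, chrX:20852314-20852405, lay 8.15 kb beyond its 3′ end, on the plus strand and inside the neighbouring gene Araf. Syn2 (chr6:115134902-115282626, plus strand) held 2 peaks, chr6:115276499-115276551 and chr6:115275904-115276005. These were 53 and 102 nt wide and lay 6.10 and 6.67 kb from the end, with 493 nt between them. At 4.13% and 4.52% of the span from the end they fall in the last 10% of the gene but not in its last 3 kb. Timp4, which lies inside the Syn2 span on the other strand, held 0 peaks, as did Timp1 inside Syn1.

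The SV2 genes also parted. Sv2b (chr7:75114894-75309262, 194 kb, minus strand) held 4 peaks in 2 pairs, at 733.5 and 819.5 nt and at 2001 and 2120.5 nt from the end. Gaps within the pairs were 34 and 47 nt and the gap between them was 1104 nt. Widths were 48, 56, 99 and 46 nt, and the widest was chr7:75116846-75116944. Sv2a (chr3:96181227-96195183, 13957 nt, plus strand), the binding site of the antiepileptic drug levetiracetam, held 0 peaks inside its span. A peak of 122 nt on the same strand, chr3:96195392-96195513, lay past the annotated end with 208 nt between. It lay in no gene span, and lengthening each span by 1 kb past its end gives Sv2a 1 peak and changes the count of no other release gene. Of the 250 nuclear peaks in no gene span, 9 (3.60%) lay within 1 kb past the end of a protein-coding gene, read along the strand of the peak. For 7 of these the promoter table does not place the gene on the other strand.

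Bsn (chr9:108096022-108190419, 94.4 kb, minus strand) had a different layout. Its 6 peaks lay at 204.5, 595 and 2593 nt, then at 9.20, 16.2 and 16.6 kb from the end. Their widths in that order were 56, 57, 117, 146, 127 and 147 nt, so the 2 nearest the end were the narrowest. The outer pair, chr9:108112147-108112273 and chr9:108112564-108112710, had 290 nt between its peaks, the shortest gap in the gene. The longest gaps in Bsn were 6473 and 6854 nt. The median width in Bsn, 122 nt, was the highest of the 6 genes, against 42 nt in Snap25 and 36 nt in Vamp2.

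**Figure D2:**
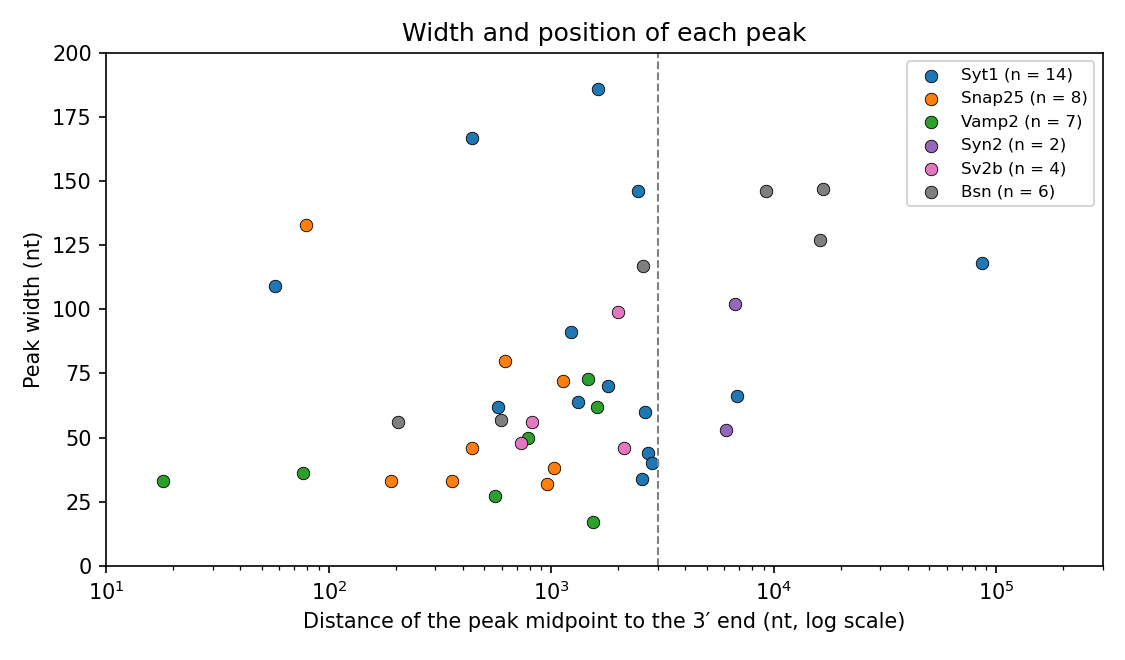
Width of each of the 41 peaks (nt) against the distance of its midpoint to the 3′ end (nt, log scale), with colours for genes and a dashed line at 3 kb. The 7 peaks beyond the line, from Syt1, Syn2 and Bsn, are 53 to 147 nt wide, and the 2 peaks up to 30 nt wide both belong to Vamp2.

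The 41 peaks had a median width of 62 nt (range 17 to 186), against 56 nt over 1529 peaks that lie in exactly 1 other protein-coding span. Peaks of at most 30 nt made up 2 of 41 (4.88%, exact 95% interval 0.596 to 16.5) in the release genes, against 280 of 1529 (18.3%) in the others. Peaks over 100 nt made up 11 of 41 (26.8%) against 279 of 1529 (18.2%). Intervals treat each peak as independent, which peaks of 1 transcript are not. Width went with position in opposite ways. In the release genes the median was 56.5 nt for the 34 peaks within 3 kb of the end and 118 nt for the 7 beyond. In the other genes it was 63 nt for 956 peaks within 3 kb and 44 nt for 573 beyond, with antisense peaks measured to the gene's other end. The 7 peaks come from 3 genes, 3 of them from Bsn, so the contrast is a description.

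Position along the gene was then set against the other protein-coding genes. The end was read along the strand of each peak, so a peak antisense to its gene is measured to the gene's other end. Where the gene's strand is known, 997 of 1120 peaks of the other genes (89.0%) lay on it. For the release genes 26 of 26 did. Antisense peaks were kept in the shares and distances of the other genes. Of the 41 peaks, 33 (80.5%, exact 95% interval 65.1 to 91.2) lay in the last 10% of the span, against 1003 of 1529 (65.6%). Within 3 kb of the end lay 34 (82.9%, exact 95% interval 67.9 to 92.8) against 956 (62.5%). The median distance was 1323.5 nt in the release genes and 1651.5 nt in the others. Quartiles were 578.5 and 2593 nt in the release genes, against 392.5 and 7422 nt in the others. The lower quartile of the release genes thus lay farther from the end, and the upper quartile nearer. The release genes ranged from 18 nt to 86.3 kb. The last 10% held 13 of 14 peaks of Syt1, all 8 of Snap25, all 4 of Sv2b, both of Syn2, 4 of 6 of Bsn and 2 of 7 of Vamp2. Counted by gene, all peaks of a gene lay in the last 10% in 3 of 6 release genes, against 446 of 843 other genes (52.9%). That rule is harder to meet with more peaks, and the median was 6.5 peaks in the release genes against 1 in the others. These 2 shares are therefore not a like comparison. The mean of the shares of the release genes was 81.3%, and no such mean was computed for the other genes. Syt1 gave 34.1% of the 41 peaks. The first 10% of a release gene held 0 of 41 peaks (exact 95% upper bound 8.60%), against 39 of 1529 (2.55%).

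**Figure D3:**
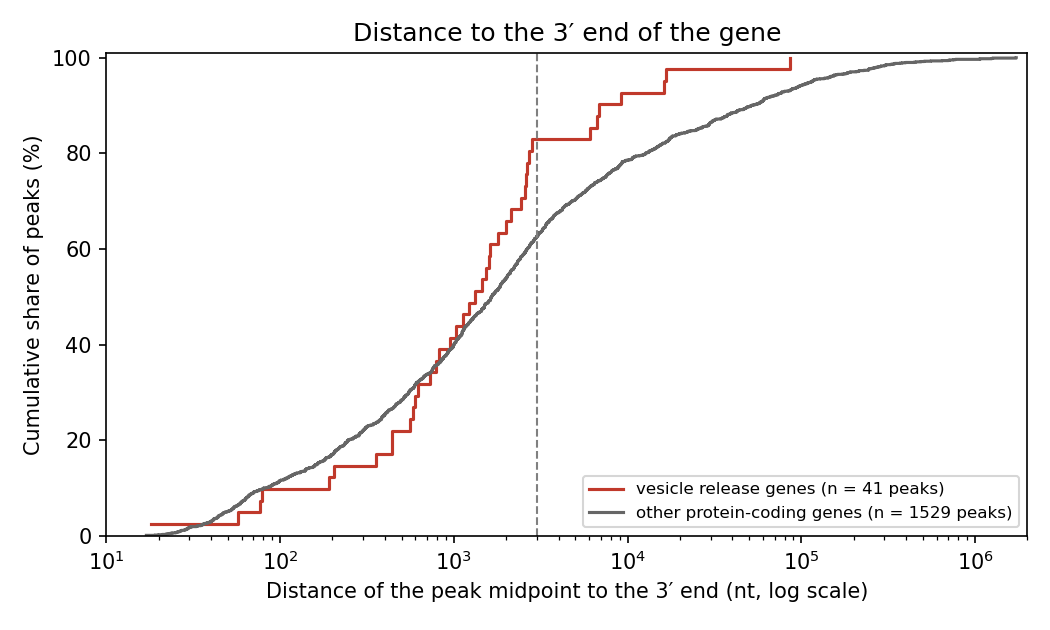
Cumulative share of peaks (%) by distance of the midpoint to the 3′ end (nt, log scale) for the 41 peaks of the release genes and 1529 peaks of other protein-coding genes, with a dashed line at 3 kb. The end is read along the strand of the peak, so antisense peaks are measured to the gene's other end. The curves run close together up to about the median and part by 3 kb, where they stand at 82.9% and 62.5%.

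Neighbouring peaks of 1 gene lay close together. Among the 35 gaps between neighbours in the release genes the median was 133 nt (range 21 to 79343), and 14 gaps (40.0%) were under 50 nt. Other protein-coding genes had 671 gaps with a median of 312 nt, of which 158 (23.5%) were under 50 nt. Of the 14 short gaps, 5 were in Syt1, 4 in Snap25, 3 in Vamp2 and 2 in Sv2b, while Syn2 and Bsn had 0. Peaks so near one another may be counted as separate or as 1, and merging those less than 50 nt apart gives 27 peaks in place of 41. Syt1 then has 9, Snap25 and Vamp2 4 each, Sv2b 2, Bsn 6 and Syn2 2.

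Strand was uniform. All 6 release genes with a peak held peaks on a single strand. For the 4 of them whose strand the promoter table gives (Syt1, Syn2, Sv2b and Bsn), 26 of 26 peaks lay on the strand of the gene (exact 95% lower bound 86.8%). For other protein-coding genes with a strand there, 997 of 1120 peaks (89.0%) did. Among other genes with at least 2 peaks, 236 of 251 (94.0%) had all of them on 1 strand. The peaks of Snap25 and Vamp2 were read along their own plus strand.

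The wider vesicle cycle was described with 5 lists of 92 genes, which include the 8 release genes. Of these 92 genes, 30 (32.6%) had at least 1 peak, against 4.30% of all protein-coding genes, and 18 had at least 2. Without the 8 genes, 24 of 84 (28.6%) had a peak, and the median was 0 peaks per gene, as over all genes. The lists were written with earlier results of these data known, so no test was made of them. The 51 peaks of the other vesicle cycle genes had a median width of 67 nt and a median distance of 1237.5 nt to the end, and 34 of them (66.7%) lay in the last 10% of the span.

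**Figure D4:**
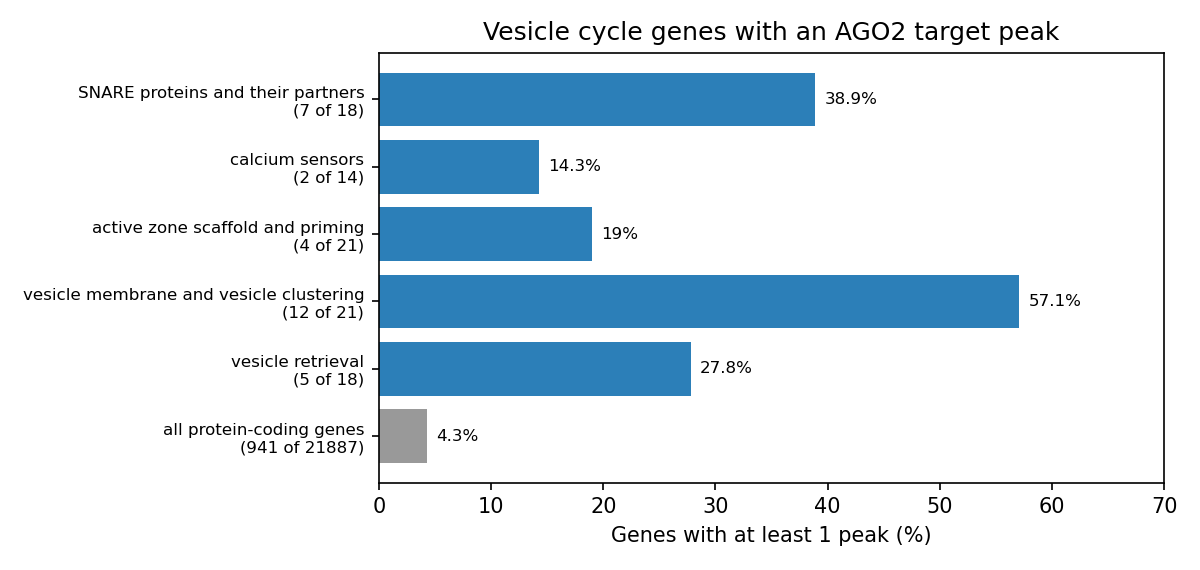
Share of genes with at least 1 peak (%) in each of 5 vesicle cycle lists and, in grey, among all protein-coding genes, with the number of genes with a peak and of all genes in brackets. The list of vesicle membrane and clustering genes stands at 57.1% and the list named calcium sensors at 14.3%, with 4.3% for all genes.

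Among SNARE proteins and their partners, 7 of 18 genes had a peak. Beside Snap25 and Vamp2 these included the complexin genes Cplx2 (3) and Cplx1 (2), whose proteins clamp the SNARE complex, and Napb (1) and Nsf (1), whose proteins take it apart. The 3 peaks of Cplx2 were wide, with a median of 153 nt, and lay at a median of 1.00 kb from the end. The syntaxin gene Stx1a had 0. The list named calcium sensors was the sparsest, and calcium binding by each of its proteins was not checked. Beside Syt1, 1 of 13 had a peak, Syt11 with 2, although the list holds 11 synaptotagmin genes.

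Of the 21 active zone and priming genes, 4 had a peak. Rab3a, the vesicle GTPase that binds RIM, had 4, at a median of 922.25 nt from the end, while Rab3c and Ppfia2 had 1 each. Pclo, the partner scaffold of Bassoon, had 0, as had the RIM genes Rims1 and Rims2 and the priming factor gene Unc13a. Of the 21 genes of vesicle membrane and clustering, 12 had a peak. Besides Sv2b and Syn2, the leading ones were Syp (synaptophysin, 6 peaks, median 1.13 kb from the end), Slc17a7 (the vesicular glutamate transporter, 5), and the proton pump subunits Atp6v1b2 (3) and Atp6v0a1 (2). Vesicle retrieval genes had a peak in 5 of 18, Sh3gl2 (endophilin A1, 3), Snap91 (AP180, 2) and Cltc, Pacsin1 and Synj1 with 1 each.

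The miRNA libraries give another readout of the same tissue. For release genes with a miRNA reported to target them, from general knowledge and in part from zebrafish and rat neurons, the question was how much of that miRNA AGO2 held. The mature sequences on the GRCm38.p6 build from RefSeq are shown so that the seed, bases 2 to 8, can be compared with that of the most abundant miRNAs. Capitals mark the seed, and all run 5′ to 3′.
miR-137-3p (Syt1): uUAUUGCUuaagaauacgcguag
miR-34a-5p (Syt1): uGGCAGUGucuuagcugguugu
miR-153-3p (Snap25 and Vamp2): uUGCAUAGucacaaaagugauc
miR-128-3p: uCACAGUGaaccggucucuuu
miR-125b-5p: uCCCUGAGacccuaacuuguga
miR-9-5p: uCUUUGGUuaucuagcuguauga
miR-136-5p: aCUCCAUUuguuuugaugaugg

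The 7 seeds all differ from one another. miR-153-3p had 492 counts in miRNA replicate 1 and 558 in replicate 2, a share of 0.737% ± 0.00113 (SD, n = 2), rank 33 of 1978 listed miRNAs. miR-137-3p, at rank 34, had 465 and 520 counts, or 0.691% ± 0.00583 (SD, n = 2). Their shares in each library overlapped within counting error, from 0.673% to 0.804% for miR-153-3p and from 0.634% to 0.761% for miR-137-3p in replicate 1 (exact 95% intervals). miR-34a-5p was scarcer, with 43 and 46 counts (0.0626% ± 0.00249, SD, n = 2).

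miR-485-5p, reported for Sv2a in rat neurons, had 10 and 6 counts, or 0.0114% ± 0.00497 (SD, n = 2), rank 275 of 1978 listed miRNAs. Of that list, only 471 were counted in miRNA replicate 1 and 495 in replicate 2. The 4 paired miRNAs together took 1.5% of the counts. The 5 leading miRNAs each exceeded that sum, from 2.76% for miR-136-5p to 13.2% for miR-128-3p, with miR-124-3p (5.57%), miR-9-5p (6.42%) and miR-125b-5p (6.43%) between. Mir5617, a hairpin inside the Syn1 span on the same strand and looked at after its position was seen, gave 0 counts for both arms in 66854 and 75658 counts, which allows a share of up to 0.00449% and 0.00397%, taking 3 counts of the total as the limit (the exact 95% upper bounds are 0.00552% and 0.00488%). Counts include duplicate reads, so intervals and limits cover counting error only. Without a genome sequence, matches of these seeds in the 41 peaks were not searched, and no peak is assigned to a miRNA.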

How the data were processed

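The deposited peak list gives position, name, strand and a score, and the authors' score is 0 for every peak. The deposited miRNA tables hold raw counts per mature miRNA, 66854 and 75658 per library, with duplicates kept according to the name of the tables. Per the submitters' processing notes, reads were handled on mm10 with STAR 2.5.2a and Bowtie2 2.4.2 among the tools, next to cutadapt 2.10, deepTools 3.1.3, UMI-tools and DESeq2 1.36.0. No role of any tool is recorded there. For the peak caller, its threshold and any pooling, nothing was given in the sources used here.

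Gene spans came from RefSeq on GRCm38.p6, the assembly of mm10, and strands from its promoter table, which covers 6 of the 8 genes and 79.9% of protein-coding genes. A midpoint in a span credited the peak to that gene, unless the midpoint also lay in a small RNA gene. Genes that host a small RNA kept their other peaks. Distance to the 3′ end is read along the peak's strand, so a peak antisense to its gene is measured to the gene's other end. The comparison peaks lie in exactly 1 protein-coding span. Shares have exact (Clopper-Pearson) 95% intervals. Python 3.11.15 and, for library scaling, edgeR 4.0.16 and DESeq2 1.42.0 were used. Peak assignment was tested on simulated data.

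The genes, lists and pairs were chosen with earlier results of these data known. Named are the 8 genes, up to 4 further genes per list with the most peaks, overlapping genes, up to 2 markers per cell type, the paired miRNAs and the 5 most abundant. Nsf, Synj1, the genes named at 0 peaks and Mir5617 fall outside this rule and were chosen after their values were seen. Some genes that the rule names are not reported here. Planned seed searches were not run.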

Additional observations from a re-analysis of the deposited data

How the results depend on the processing

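Counting any overlap, dropping peaks under 30 nt or keeping single spans left 28 to 41 peaks in the release genes. Lengthening spans by 1 kb, chosen after seeing the data, gave 42. Requiring the strand of the gene where the promoter table gives it left 41. That rule could not remove peaks of Snap25 and Vamp2, which have no strand there. All of these counts lie within 1.5 times the 41 reported. Merging peaks less than 50 nt apart gave 27. The single-span rule took the count of Syt1 to 1, because 13 of its peaks also lie in Gm36601. The share in the last 10% of the span ran from 74.1% (without Syt1) to 90.2% (last 20%), the median distance from 951.5 to 1764.875 nt and the median width from 56 to 62 nt, all inside the 95% interval of the value reported. Of the vesicle cycle genes, 18 had at least 2 peaks, 26 had one in the last 10% and 30 by any overlap. The summed share of the 4 paired miRNAs was 1.49% to 1.51% with either library left out and 1.73% with miR-128-3p out of the denominator, which shrinks the total. No paired analysis was possible because the peaks have no values per library and the counts hold only 1 group. Seed matches were not run. With no depth for the target libraries, a gene with 0 peaks is one without a called peak, not one shown to be unbound.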

Other observations

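Peak names carry numbers up to 14469, which run in order of position within each chromosome and strand, while the list holds 2197 peaks, or 15.2% of the numbers. Within the release genes that have at least 4 peaks, 39 of the 90 numbers between the first and the last peak of a gene are in the list (43.3%), against 544 of 1542 (35.3%) in 79 other protein-coding genes with at least 4 peaks on 1 strand. Bsn had 6 of 29 numbers, Vamp2 7 of 18, Syt1 14 of 26, Snap25 8 of 12 and Sv2b 4 of 5. What the other numbers stand for is not given in the sources used here and was not tested.

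The stretch from the first to the last peak within 3 kb of the end was covered by peaks for 17.4% to 40.5% in the 4 release genes with at least 4 peaks there (Syt1, Snap25, Vamp2 and Sv2b). In 54 other protein-coding genes with as many, the median cover was 25.6% and the range 7.03% to 77.4%. Cover in the release genes lay within that range.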
